A study of Zea mays with 24 samples.

Results

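Salinity changed the transcript levels of many genes in young shoots of the maize (Zea mays) cultivar ST, most of them by less than 1.5-fold, and moved a small set by 8-fold or more. The comparison rests on 6 of the 24 libraries of the study: 3 from shoots of seedlings given the 100 mM salinity solution and 3 from shoots of seedlings given water. Treatment began at the 3-leaf stage, after growth under normal conditions, and how long it lasted is not stated in the labels. The other libraries are ST roots and the shoots and roots of a second cultivar, SS, under the same treatments, with 3 libraries in each of the 8 groups. What the names SS and ST stand for is not stated in the labels, and no allele, transgene or other agent is named. The series describes the libraries as biological replicates, but no source used here says how many plants or which plants went into each, so p-values measure the spread between these libraries.

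Levels are given in FPKM, the number of sequenced fragments scaled to the length of the gene and to the total of the library. Of 44146 genes with identifiers that begin with Zm00001d, 22798 were tested because their level reached 1 FPKM in at least 3 of the 12 shoot libraries. Among the 21348 that were not tested, 12007 had no read in any ST shoot library and 9341 had at least 1. The identifiers could not be paired with gene names or functions here, so the genes below are described by identifier, level and behaviour, and the labelled tissue could not be checked against named marker genes. Genes were named by fixed rules of size and level, and each departure from those rules is stated.

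Salt reaches a plant through its roots, where it lowers the water potential of the soil solution, and sodium and chloride are then carried to the shoot in the transpiration stream. In leaves, high salinity is known for stomatal closure, slower growth and lower photosynthesis, and for the accumulation of compatible solutes and protective proteins, partly under control of the hormone abscisic acid.

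The 6 libraries held 21914845 to 26611690 reads as recovered from the FPKM values. Replicate libraries of 1 treatment correlated across features at 0.9945 to 0.9953 (Pearson, log2 scale), as a description across genes that are not independent. The 10 features with the most reads in each library, ranked by reads and not by FPKM, took a mean of 9.65% of reads under water. Under salinity the mean was 9.43%, so the share held by the leading features was similar in both treatments.

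Under salinity 4697 of all 24810 features tested rose (18.9%) and 5654 fell (22.8%), as called by limma at an adjusted p under 0.05, or 41.7% in all. The 3 salinity and the 3 water libraries did not overlap for 51.2% of the features. These changes were mostly small. The median log2 fold change was 0.36 among the rises and -0.40 among the falls, and 77.4% of the rises and 71.2% of the falls were under 1.5-fold. A rise of at least 2-fold was called for 347 features (1.4%) and a fall of at least 2-fold for 541 (2.18%), both on the log2(FPKM + 1) scale. With a pseudocount of 0.1 these counts were 639 and 1133, and with voom on recovered reads 714 and 1232. On the log2(FPKM + 1) scale, which shrinks the changes of low genes, there were 46 rises and 62 falls of 4-fold or more and 9 rises and 1 fall of 8-fold or more. Ratios of mean FPKM given below for single genes do not carry this shrinkage and can be larger. The majority among the called features was small and followed the scaling: 45.38% of them had risen with FPKM as deposited and 51.51% after quantile scaling. With 6 libraries of whole shoots, fewer cells of a type and less RNA per cell cannot be told apart.

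Of the Zm00001d genes, 4453 rose, 5255 fell and 13090 were not called, with 324 rises and 443 falls of at least 2-fold. The features called higher took 23.18% of reads under water and 30.97% under salinity, and those called lower went from 33.73% to 25.98%. The 347 rises of at least 2-fold took 0.744% and then 2.02% of reads, and the 541 falls took 1.42% and then 0.492%. Reads therefore moved mainly between genes with moderate changes. Features with strong changes had lower median lengths, where lengths here and below were inferred from the FPKM values. The median length was 1173 bases for rises of at least 2-fold and 1008 for such falls, against 1571 among features not called.

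**Figure D1:**
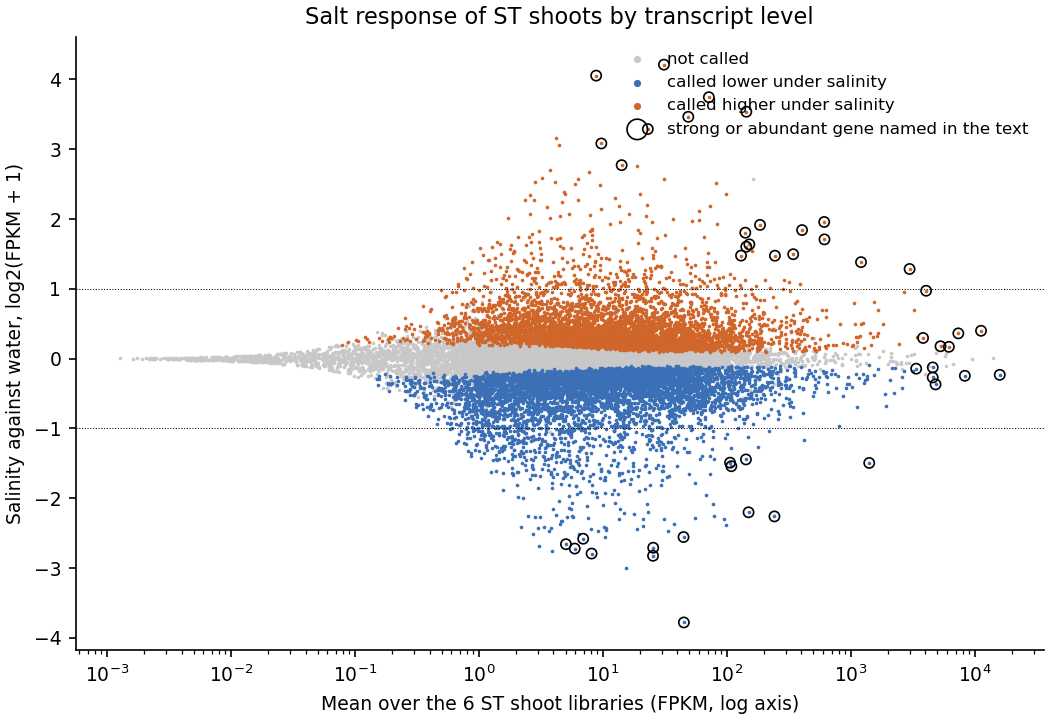
Salt response against level in ST shoots: each point is a tested feature, placed by its mean FPKM over the 6 ST shoot libraries (log axis) and its log2(FPKM + 1) difference, salinity minus water. Dotted lines mark 2-fold, and the points beyond them are few beside the 4697 rises and 5654 falls called; circled genes are strong or abundant ones named in the text.

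The share of genes called grew with level up to 1000 FPKM. It was 18.0% of the 3102 tested features below 1 FPKM, 37.6% from 1 to 10 FPKM, 52.7% from 10 to 100 FPKM, 69.5% of the 937 features from 100 to 1000 FPKM and 60.6% of the 99 at 1000 FPKM or more. Falls outnumbered rises below 10 FPKM, with 2532 against 1974 from 1 to 10 FPKM and 363 against 194 below 1 FPKM. From 10 to 100 FPKM there were 2174 rises and 2403 falls, from 100 to 1000 FPKM 324 and 327, and at the top 31 and 29. The balance of directions depended on the scaling. After median-of-ratios scaling it turned to 2490 rises and 2265 falls from 10 to 100 FPKM, and it was 354 to 313 and 32 to 22 in the 2 higher classes, while falls still outnumbered rises from 1 to 10 FPKM, 2405 to 2268, and below 1 FPKM, 373 to 219. Changes of at least 2-fold ran 336 falls to 179 rises from 1 to 10 FPKM, and 11 falls to 26 rises from 100 to 1000 FPKM. Precision is higher at high levels and log2(FPKM + 1) shrinks low ones, and the part of these in the pattern was not tested.

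**Figure D2:**
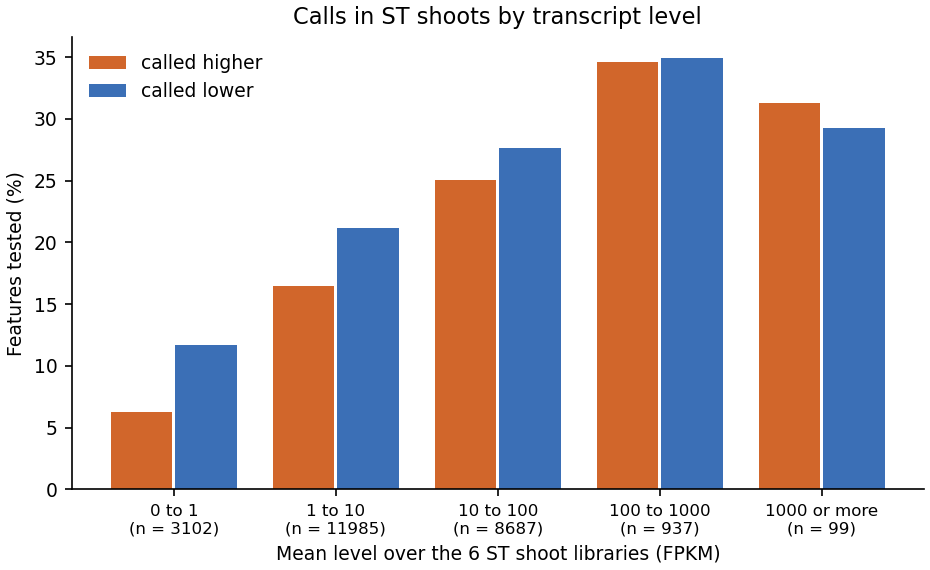
Share of tested features called higher or lower in ST shoots (bars, percent, from 0) by mean level over the 6 ST shoot libraries (FPKM classes, number tested under each). Both directions rise from the lowest class to the class of 100 to 1000 FPKM, where 34.6% were called higher and 34.9% lower.

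The strongest rises took genes from low levels under water to between 17.6 and 266 FPKM. Zm00001d044078, a short gene of 225 bases, stood at 1.67, 2.40 and 2.90 FPKM in the 3 water libraries and at 60.03, 60.2 and 59.4 FPKM in the 3 salinity libraries. Its mean rose 25.8-fold (log2 change 4.21 with SE 0.097, adjusted p = 5.33e-12 by limma, n = 3 each). It was low in all water libraries and nearly equal among the salinity libraries. Zm00001d014083 had 0.220, 0.0323 and 0.102 FPKM under water, from 7, 1 and 3 reads, and 18.4, 17.8 and 16.5 FPKM under salinity. Its ratio of means was 148-fold, the largest among these 8 genes but measured against at most 7 reads in a water library, and on the log2(FPKM + 1) scale it rose by 4.05 (SE 0.10, limma adjusted p = 5.78e-12). That scale understates the change of low genes, here and for all low genes below.

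Another 2 of the 8 ended above 100 FPKM. Zm00001d051420 went from 8.19, 9.84 and 9.28 FPKM to 135, 132 and 136 FPKM. Its rise was 14.7-fold (log2 change 3.75 with SE 0.053, adjusted p = 7.41e-14 by limma). Zm00001d017547 went from 22.5, 21.4 and 21.97 FPKM to 267, 260.1 and 269.9 FPKM, a rise of 12.1-fold with the smallest adjusted p of the 8 (log2 change 3.54 with SE 0.038, adjusted p = 4.38e-15 by limma). In both genes the replicates of a treatment lay close together and the treatments far apart. Zm00001d014947 rose from 7.29 ± 0.254 to 90.5 ± 2.29 FPKM (n = 3 each), with the lowest salinity library at 89.1 and the highest water library at 7.54 FPKM. Zm00001d039944 rose from 3.46 ± 0.344 to 42.7 ± 4.07 FPKM and Zm00001d011123 from 1.27 ± 0.233 to 18.2 ± 2.002 FPKM, with log2 fold changes of 3.29 and 3.08. Zm00001d025141 rose from 2.88 ± 0.244 to 25.5 ± 0.870 FPKM, the smallest of the 8 changes at 8.85-fold. In each of the 8 genes the lowest salinity library lay well above the highest water library, as the selection required.

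The strongest falls led from moderate levels to a few FPKM. Zm00001d028651 stood at 90.1, 81.3 and 83.1 FPKM under water and at 4.44, 5.71 and 5.67 FPKM under salinity. Its mean fell 16.1-fold (log2 change -3.78 with SE 0.097, adjusted p = 1.5e-11 by limma), the largest fall among Zm00001d genes of at least 5 FPKM. Zm00001d014491 went from 78.3, 76.7 and 76.6 FPKM to 13.95, 11.8 and 11.2 FPKM, a fall of 6.25-fold (log2 change -2.56 with SE 0.079, adjusted p = 5.52e-11 by limma). Zm00001d039524 and Zm00001d006446 began at similar levels. The first went from 45.9, 44.6 and 45.4 FPKM to 6.14, 4.93 and 5.58 FPKM, and its log2 fold change was -2.82 (SE 0.10, limma adjusted p = 2.42e-10). The second went from 44.2, 44.6 and 46.1 FPKM to 6.06, 5.75 and 6.29 FPKM, with a log2 fold change of -2.71 (SE 0.056, limma adjusted p = 3.24e-12). All 4 genes kept a measurable level under salinity, with the 3 salinity libraries close together.

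The other 4 of these falls ended near 1 FPKM. Zm00001d034130 fell from 14.9 ± 0.769 to 1.30 ± 0.233 FPKM and Zm00001d012321 from 12.6 ± 0.904 to 1.28 ± 0.296 FPKM (n = 3 each). Zm00001d011661 had 11.1, 11.1 and 10.8 FPKM under water and 1.46, 0.636 and 0.499 FPKM under salinity, where replicate 1, with 48 reads, lay above the other two, with 23 and 17. Its fall of 12.7-fold carried the largest error of the 8 (log2 change -2.72 with SE 0.15, adjusted p = 1.41e-08 by limma). Zm00001d000161 fell 14.5-fold, from 118, 125 and 130 reads to 7, 7 and 9 reads. Its 12 root libraries held no read, and neither did the 3 SS shoot libraries under salinity.

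**Figure D3:**
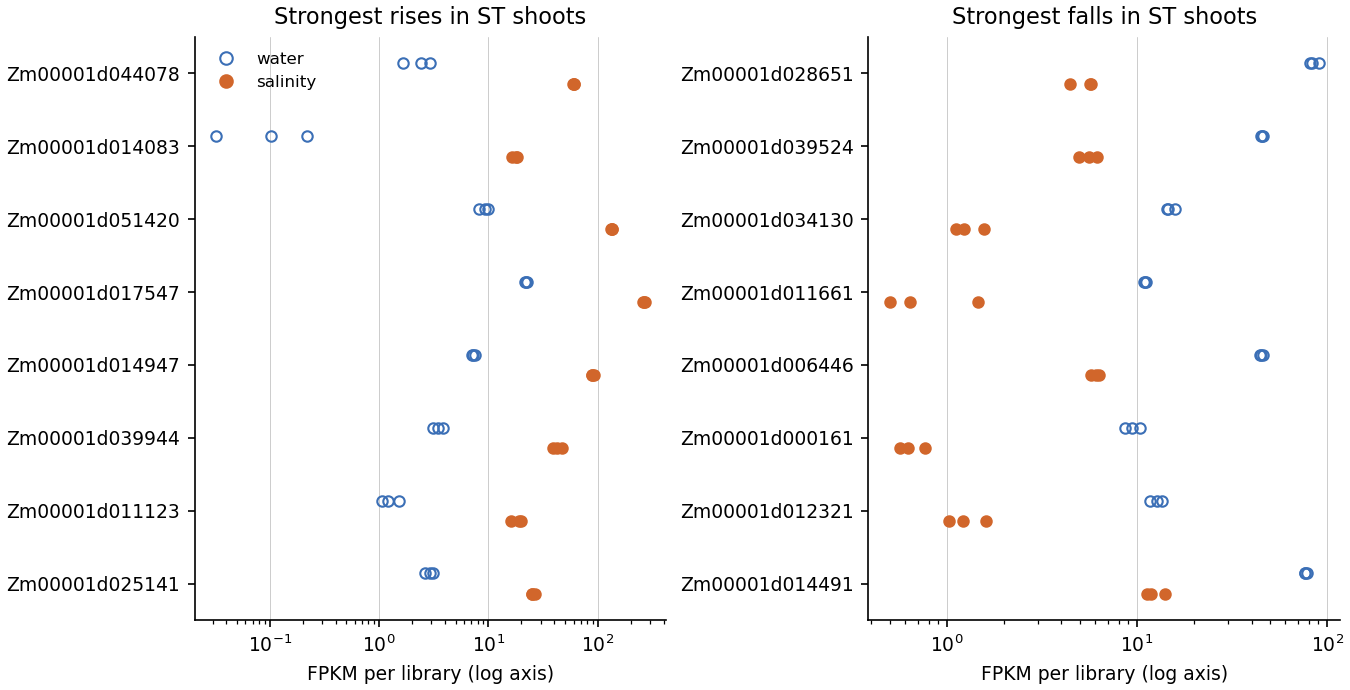
FPKM per library (log axis) of the 8 Zm00001d genes with the strongest rises (left) and the 8 with the strongest falls (right), open circles for the 3 water and filled circles for the 3 salinity libraries. The 2 treatments do not overlap for any of the 16 genes, as their selection required. Zm00001d014083 is spread widest, from 0.0323 to 0.220 FPKM under water.

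Among the most abundant genes the changes were small, but each involved many transcripts. Zm00001d021435, the most abundant gene of ST shoots, stood at 17166, 16861 and 17530.0 FPKM under water and at 14535, 14667 and 14695 FPKM under salinity. It fell 1.17-fold (log2 change -0.23 with SE 0.055, adjusted p = 0.00391 by limma). Every salinity library lay below every water library, as the naming rule required. Zm00001d011285 fell from 9026 ± 125 to 7612 ± 171 FPKM and Zm00001d035859 from 5443 ± 81.8 to 4217 ± 210.0 FPKM, with limma adjusted p = 0.00553 and 1.48e-05. Zm00001d021784 fell from 5007 ± 90.04 to 4155 ± 124 FPKM (adjusted p = 0.00126 by limma). The last 2 of the 6 most abundant falls were the least secure. Zm00001d021763 went from 4784 ± 63.2 to 4384 ± 59.05 FPKM and Zm00001d008706 from 3538 ± 96.6 to 3201 ± 21.5 FPKM (limma adjusted p = 0.037 and 0.0483), and both lost the call whichever of the 6 ST shoot libraries was left out, with adjusted p of up to 0.111 and 0.156. Both calls were also lost with the replicate number as a block (0.0514 and 0.0636), with median-of-ratios scaling (0.184 and 0.179), with a pseudocount of 0.1 (0.0529 and 0.0623) and in the fit of all 24 libraries (0.294 and 0.0823), and that of Zm00001d021763 also with quantile scaling (log2 difference 0, adjusted p = 1).

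Of the 6 most abundant rises, Zm00001d053845 had the highest level. It stood at 9414, 9776 and 9885 FPKM under water and at 12699, 12724 and 12911 FPKM under salinity. The rise was 1.32-fold (log2 change 0.40 with SE 0.098, adjusted p = 0.00505 by limma), and the gene was not called after quantile scaling (log2 difference 0, adjusted p = 1) or in a fit of all 24 libraries (adjusted p = 0.0668). Zm00001d023376 rose from 6450.2 ± 67.8 to 8291 ± 221 FPKM (adjusted p = 1.34e-05 by limma), Zm00001d018797 from 5822 ± 118 to 6546 ± 41.5 FPKM (adjusted p = 0.00447 by limma), and Zm00001d049387 from 4967 ± 59.3 to 5621 ± 288 FPKM (adjusted p = 0.00444 by limma). Zm00001d044925 rose from 3437 ± 86.2 to 4220.2 ± 43.3 FPKM (adjusted p = 0.00195 by limma). The last, Zm00001d048611, was the exception in size: from 2801, 2716 and 2688 FPKM it went to 5345, 5119.8 and 5651 FPKM, a rise of 1.96-fold (log2 change 0.97 with SE 0.051, adjusted p = 6.37e-09 by limma). Quantile scaling also ended the calls of Zm00001d018797, Zm00001d044925, Zm00001d021435, Zm00001d011285 and Zm00001d021763, with adjusted p of 0.0629, 0.148, 1, 0.0620 and 1. The call of Zm00001d011285 was also lost in the fit of all 24 libraries (adjusted p = 0.250). Quantile scaling sets the top ranks of all libraries to the same values, so a gene that keeps its rank there shows no change. Testing all features with any value above 0 ended those of Zm00001d018797, Zm00001d049387, Zm00001d021435, Zm00001d021763 and Zm00001d008706, with adjusted p of 0.0578, 0.0531, 0.0693, 0.135 and 0.129.

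The 10 most abundant Zm00001d genes together took 7.33% to 7.52% of reads in the water libraries and 7.30% to 7.41% in the salinity libraries; this list was taken by level alone and drawn up after the values were seen. In ST shoots 3 of them rose, 2 fell and 5 were not called. Zm00001d009589 stood at 13536, 14081 and 13923 FPKM under water and 13998, 14336 and 13553 FPKM under salinity, with overlapping groups (adjusted p = 0.933 by limma). Zm00001d039040 had means of 9463 ± 246 to 9467 ± 50.2 FPKM (limma adjusted p = 1). Zm00001d031168 went from 6811 ± 58.7 to 6472 ± 168 FPKM, Zm00001d034543 from 6095 ± 166 to 5683 ± 20.9 FPKM and Zm00001d036535 from 5678 ± 78.8 to 5984 ± 30.9 FPKM, with limma adjusted p = 0.182, 0.141 and 0.14. These last 3 did not overlap between treatments but were not called in the fit of 12 shoot libraries; each was called in a fit of the 6 ST shoot libraries alone (adjusted p = 0.0274, 0.00642 and 0.0108). In the SS shoot libraries, which the levels that chose this list do not use, 8 of the same 10 genes were called lower and none higher, with a median log2 fold change of -0.46 against 0.01 in ST shoots. The background in SS shoots was 23.0% of features called lower and 33.6% called higher. It covers features of all levels, and a background of abundant features alone was not computed for SS shoots. The difference between the cultivars' responses was itself called for 8 of the 10, each higher in ST, where 51.3% of all features differed in either direction. With median-of-ratios scaling the count in SS shoots was 9 lower and none higher, in ST shoots it was again 3 higher and 2 lower, and the difference was called for 9.

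**Figure D4:**
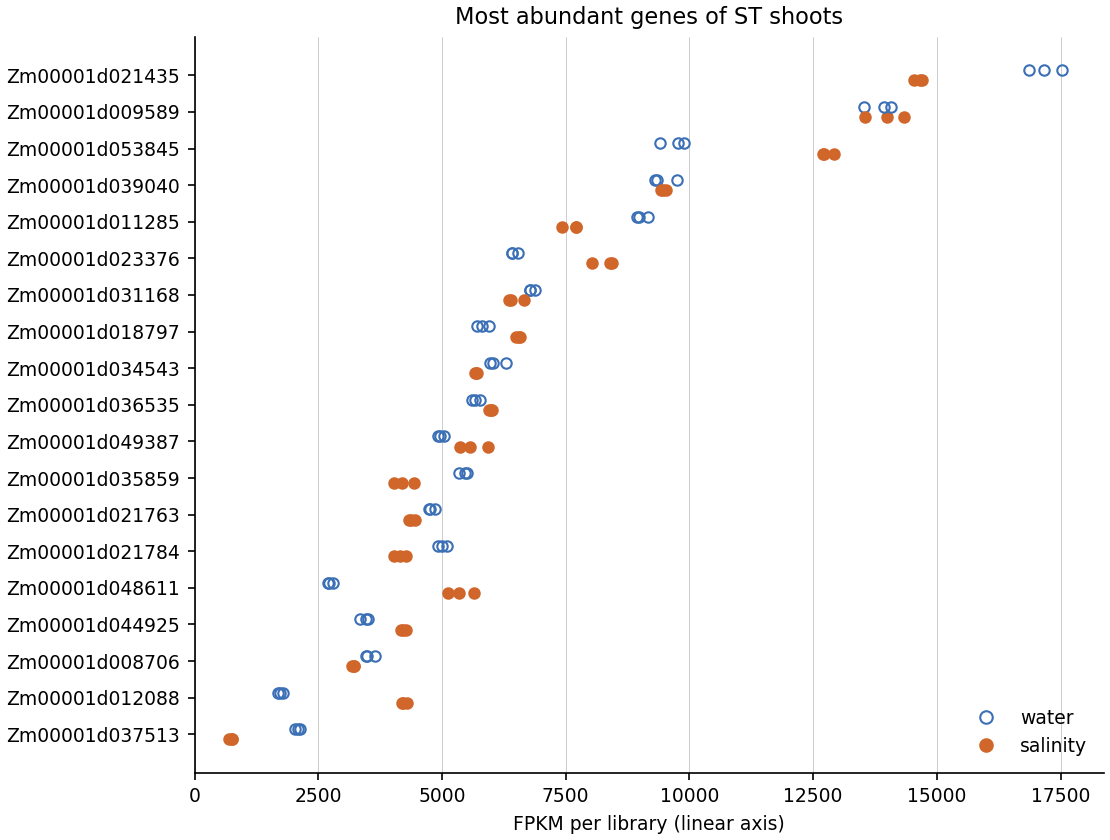
FPKM per library (linear axis) of the most abundant Zm00001d genes of ST shoots and those with the largest changes in FPKM, ordered by mean level, with open circles for the 3 water and filled circles for the 3 salinity libraries. Zm00001d021435 moves down 1.17-fold and Zm00001d053845 up 1.32-fold, while Zm00001d048611 and Zm00001d012088 move up 1.96-fold and 2.44-fold and Zm00001d037513 down 2.82-fold.

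Measured in FPKM, the largest gains were those of Zm00001d053845, Zm00001d048611, Zm00001d012088 and Zm00001d023376, at 3086, 2637, 2490.4 and 1841 FPKM. Zm00001d012088, of 285 bases, was not among the 6 most abundant rises. It stood at 1679.8, 1735 and 1790.2 FPKM under water and at 4283, 4207 and 4186 FPKM under salinity, a rise of 2.44-fold (log2 change 1.28 with SE 0.035, adjusted p = 2.42e-11 by limma). The largest losses were those of Zm00001d021435, Zm00001d011285, Zm00001d037513 and Zm00001d035859, with differences of -2553, -1414, -1342 and -1226 FPKM. Zm00001d037513 was the one strong change among them, from 2080.5, 2035 and 2123 FPKM to 702, 747 and 764 FPKM, a fall of 2.82-fold (log2 change -1.49 with SE 0.05, adjusted p = 1.05e-10 by limma). In both genes the 3 libraries of a treatment lay close together and far from the other 3.

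Strong changes were also found among abundant genes. Of 1027 Zm00001d genes tested with a mean of at least 100 FPKM, 27 rose (2.63%) and 12 fell (1.17%) by at least 2-fold, against 1.4% and 2.18% of all features tested, or 3.797% against 3.58% in either direction, a list drawn up after the values were seen. How these shares compare depends on the setting, since low features are shrunk most: with a pseudocount of 0.1 they were 3.797% and 7.14%, and with voom 3.89% and 7.84%. The 39 genes had a median length of 732 bases, against 1053 among the 1027. After Zm00001d017547, the largest rise was that of Zm00001d040979, from 249, 244 and 255 FPKM to 951, 965 and 998 FPKM, or 3.90-fold (log2 change 1.96 with SE 0.035, adjusted p = 9.01e-13 by limma). Zm00001d027332 had the second highest level under salinity among the 27, after Zm00001d012088: it went from 686, 665 and 659 FPKM to 1728, 1679.8 and 1841 FPKM, or 2.61-fold. Zm00001d024778, of 177 bases, rose from 287 ± 16.6 to 940.2 ± 69.5 FPKM and Zm00001d021358 from 179 ± 10.6 to 507 ± 7.31 FPKM (n = 3 each). Zm00001d020497, Zm00001d048709, Zm00001d042862, Zm00001d011461, Zm00001d040190 and Zm00001d037228 rose 3.81-fold, 3.53-fold, 3.14-fold, 3.06-fold, 2.81-fold and 2.79-fold, from means of 62.2 to 129 FPKM under water to means of 192 to 360 FPKM. The replicates of Zm00001d022420 differed far more than those of the other genes: it stood at 127, 247 and 147 FPKM under water and at 792, 751 and 363 FPKM under salinity. Its groups did not overlap, but the SE of its log2 fold change was 0.27 around a value of 1.84 (adjusted p = 9.15e-05 by limma).

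Among the 12 abundant falls, Zm00001d026436 changed most, from 409, 398 and 398 FPKM to 83.2, 80.9 and 84.99 FPKM, or 4.84-fold (log2 change -2.26 with SE 0.089, adjusted p = 4.6e-10 by limma). Zm00001d028793 was close to it, from 231, 256 and 253 FPKM to 56.9, 53.8 and 48.05 FPKM, or 4.66-fold (log2 change -2.20 with SE 0.095, adjusted p = 1.01e-09 by limma). Both kept a level under salinity, and their libraries lay close together within treatments. Zm00001d026160, Zm00001d048947 and Zm00001d036370 fell 2.95-fold, 2.84-fold and 2.73-fold. Their means went from 162 ± 8.70 to 55.1 ± 2.41 FPKM, from 157 ± 1.63 to 55.4 ± 4.33 FPKM and from 209 ± 4.53 to 76.5 ± 9.23 FPKM, in that order.

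A few genes were read in 1 treatment only. Among the Zm00001d genes called, 4 had no read in the 3 water libraries and at least 1 in each salinity library, and 7 showed the reverse. Other kinds of features were not counted. Zm00001d047165 was the clearest: 137, 126 and 108 reads under water, or 4.35 ± 0.338 FPKM, and none under salinity. With a floor of 3 reads over the 3 salinity libraries, its level was at least 110-fold lower. It stood below 1 FPKM in every SS shoot library, so it passed the filter only through the ST water libraries where it was high, and no p is given. The same holds for Zm00001d000161 above. Zm00001d048660 was likewise at least 14.5-fold lower, from 14 to 21 reads per water library to none. In the other direction, Zm00001d047093 was at least 14.6-fold higher, with 10 to 17 reads per salinity library, and Zm00001d016128 at least 10.9-fold, with 8 to 12. Both stayed under 1 FPKM in ST shoots, with salinity means of 0.509 and 0.240 FPKM, and passed the filter only through SS shoot libraries. Zm00001d047093 was abundant in ST roots, at 155 ± 6.09 FPKM under water and 127 ± 15.4 FPKM under salinity. In SS shoots it fell from 16.15 ± 1.08 to 3.95 ± 0.641 FPKM. The call of Zm00001d016128 was lost when any of 5 of the 6 ST shoot libraries was left out, with adjusted p of up to 0.102. Zm00001d016074 and Zm00001d041966, of 74 and 72 bases, rested on 1 to 4 reads per library and are given no fold.

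Genes of microRNA precursors were measured as features of the same RNA libraries, and the mature microRNAs were not measured. Those named below had inferred lengths of 104 to 124 bases. Of 20 such genes tested, 5 rose (25%) and 1 fell (5%), against 18.9% and 22.8% of all features, and with so few genes these shares are a description only. zma-MIR168a stood at 53.8, 54.2 and 58.9 FPKM under water and 114, 107 and 119.7 FPKM under salinity, and zma-MIR168b at 50.9, 47.2 and 50.6 and 89.9, 93.9 and 91.4 FPKM (limma adjusted p = 6.26e-08 and 0.00118). MicroRNA 168 is known to target the transcript of ARGONAUTE1, a core protein of microRNA action in plants. zma-MIR156d, a member of the family that restrains SPL transcription factors in juvenile shoots, was read 28, 39 and 27 times under water and 65, 58 and 74 times under salinity, an increase of 2.36-fold (limma adjusted p = 2.31e-05). In these 3 genes the treatments did not overlap. zma-MIR528a overlapped, at 2.75, 2.83 and 5.97 FPKM under water and 6.31, 8.75 and 5.01 FPKM under salinity. Its call (adjusted p = 0.0471 by limma) was lost when either of 2 water or either of 2 salinity libraries was left out (adjusted p of up to 0.182), when replicate number was added as a block (0.0597), without the filter (0.0970), with voom (0.110) and in the fit of all 24 libraries (0.0908). The 1 gene that fell, zma-MIR399e, was too low for the naming rule and was chosen after its values were seen. It was read 12, 8 and 1 times under water and 0, 3 and 0 times under salinity, with overlapping groups (adjusted p = 0.0248 by limma). It passed the filter only through ST shoot libraries. Its call was lost without salinity replicate 1 or 3 (adjusted p of 0.0898 and 0.0897), without the filter (0.0561) and with the 6 ST shoot libraries alone (0.0613). MicroRNA precursor genes of a family have near copies, and how the authors assigned reads among them is not stated in the labels.

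The strongest and most abundant genes were then followed in SS shoots and in ST roots. The ST root libraries had no part in choosing them. The SS shoot libraries did not enter the ST difference itself, but they entered the filter on low values and the estimate of the spread behind the calls; with the 6 ST shoot libraries alone 4563 features rose and 5424 fell. In SS shoots 8327 features rose (33.6%) and 5705 fell (23.0%), and in ST roots 7087 of 27109 rose (26.1%) and 5332 fell (19.7%). Of the 347 features that rose by at least 2-fold in ST shoots, 209 also rose in SS shoots, which is 60.2% of the 347 and 2.51% of the SS rises, and 65 (18.7%) fell there. Of the 541 falls, 271 also fell in SS shoots, which is 50.1% of the 541 and 4.75% of the SS falls, and 87 (16.1%) rose. In ST roots 188 of the 347 rose, 54.2% of them and 2.65% of the root rises, and 192 of the 541 fell, 35.5% of them and 3.60% of the root falls. The roots had 300 of the 347 and 418 of the 541 above the filter. In both SS shoots and ST roots the share that moved in the same direction stood above the background share for that direction. These are descriptions of lists taken by size, and they were not tested as sets.

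The 8 strongest rises divided in SS shoots into 6 that rose and 2 that fell, against 33.6% and 23.0% of all features. Zm00001d051420 rose there from 99.9 ± 3.19 to 651 ± 20.8 FPKM, Zm00001d044078 from 75.1 ± 0.839 to 246 ± 10.6 FPKM and Zm00001d017547 from 33.5 ± 0.536 to 191 ± 8.18 FPKM, with log2 fold changes of 2.69, 1.70 and 2.47. The fold change was smaller than in ST shoots while the level under salinity in SS shoots was higher for the first 2. Zm00001d014947 and Zm00001d011123 were the 2 that fell. Zm00001d011123 fell in SS shoots from 77.4 ± 2.84 to 37.4 ± 0.606 FPKM (limma adjusted p = 1.71e-07), so that salinity brought the 2 cultivars from levels far apart to 18.2 and 37.4 FPKM. Zm00001d014947 showed a small fall from 353 ± 13.8 to 305 ± 37.5 FPKM (limma adjusted p = 0.0176) and stood higher in SS shoots under either treatment. In ST roots 7 of the 8 were tested, 6 rose and Zm00001d014947 fell, from 275 ± 36.7 to 199 ± 11.2 FPKM (limma adjusted p = 0.00145). Of all features tested in ST roots, 26.1% rose and 19.7% fell.

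Of the 8 strongest falls, 4 were called higher and 4 lower in SS shoots, against 33.6% and 23.0% of all features. Among the 4 lower was Zm00001d000161, with 4 reads in each SS water library and none under salinity. It passed the filter only through ST water libraries, so its call in SS shoots carries little weight. Zm00001d039524 rose there from 5.79 ± 0.288 to 30.01 ± 5.25 FPKM (limma adjusted p = 1.55e-09) and Zm00001d014491 rose from 27.1 ± 2.18 to 66.3 ± 5.59 FPKM (limma adjusted p = 2.11e-08). Zm00001d011661, in contrast, fell in both cultivars, in SS shoots from 36.2 ± 2.40 to 5.22 ± 0.979 FPKM (limma adjusted p = 1.31e-08). In ST roots none of the 6 that were tested fell and 3 rose, against 19.7% and 26.1% of all features. Zm00001d028651 rose in ST roots from 57.8 ± 4.63 to 142 ± 12.1 FPKM (limma adjusted p = 1.48e-06), the direction opposite to its fall in the shoots of the same cultivar.

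The 12 abundant genes that fell by at least 2-fold in ST shoots were all called lower in SS shoots, where 23.0% of all features were called lower. The shares in this paragraph cover features of all levels, and calls were more frequent among abundant features. In ST shoots 34.9% of features from 100 to 1000 FPKM were called lower, against 22.8% of all. The share of abundant features called lower in SS shoots was not computed. Zm00001d028793 fell there from 73.1 ± 10.2 to 12.8 ± 1.24 FPKM and Zm00001d026436 from 172 ± 26.3 to 32.1 ± 3.34 FPKM. In ST roots 5 of the 10 tested rose, 4 fell and 1 was not called. Of the 27 abundant rises, 16 rose in SS shoots and 9 fell, against 33.6% and 23.0% of all features. Among the 16, Zm00001d021358 was low in SS shoots, at 2.17 ± 0.138 FPKM under water and 3.94 ± 1.25 FPKM under salinity. Of the 24 tested in ST roots 11 rose and 9 fell, against 26.1% and 19.7% of all features tested there. Zm00001d040979 rose in SS shoots from 117 ± 3.90 to 321 ± 7.87 FPKM and stayed under 1 FPKM in the roots of both cultivars. Zm00001d042862 rose in both tissues, in ST roots from 36.04 ± 4.75 to 565 ± 67.7 FPKM, a log2 fold change of 3.93 against 1.64 in ST shoots.

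Of the 24 abundant rises that were also tested in roots, 6 were called lower in both SS shoots and ST roots, and 5 of these also in SS roots, chosen after their values were seen. Over all 22902 features tested in these groups the shares were 5.74% and 2.43%, and over the 966 Zm00001d genes among them with a mean of at least 100 FPKM they were 13.3% and 7.04%. The 5 were Zm00001d012088, Zm00001d011461, Zm00001d020497, Zm00001d042684 and Zm00001d022274. The falls of the first 2 were the largest. Zm00001d012088 fell in SS shoots from 5685 ± 173 to 2385 ± 17.5 FPKM, in ST roots from 451 ± 57.99 to 68.1 ± 9.97 FPKM and in SS roots from 438 ± 31.8 to 125 ± 5.68 FPKM. Zm00001d011461 fell in SS shoots from 1125 ± 98.7 to 347 ± 4.75 FPKM, in ST roots from 63.1 ± 9.44 to 2.47 ± 0.849 FPKM and in SS roots from 259.9 ± 16.8 to 7.36 ± 1.81 FPKM. Each of these 6 falls was called, with limma adjusted p from 1.33e-11 to 6.76e-08. In the other 3 genes the falls were smaller. The log2 fold changes in SS shoots, ST roots and SS roots were -0.22, -0.62 and -0.69 for Zm00001d020497, -0.38, -1.25 and -0.33 for Zm00001d042684, and -0.52, -0.14 and -0.31 for Zm00001d022274. In ST shoots Zm00001d042684 rose from 66.8 ± 0.593 to 140.3 ± 4.12 FPKM and Zm00001d022274 from 250.2 ± 2.62 to 527 ± 10.2 FPKM. Under water Zm00001d012088 and Zm00001d011461 stood lower in ST shoots than in SS shoots, and after salinity Zm00001d012088 at 4283, 4207 and 4186 FPKM lay above the SS shoots and Zm00001d011461 at 220.1, 209.7 and 219.6 FPKM below them.

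**Figure D5:**
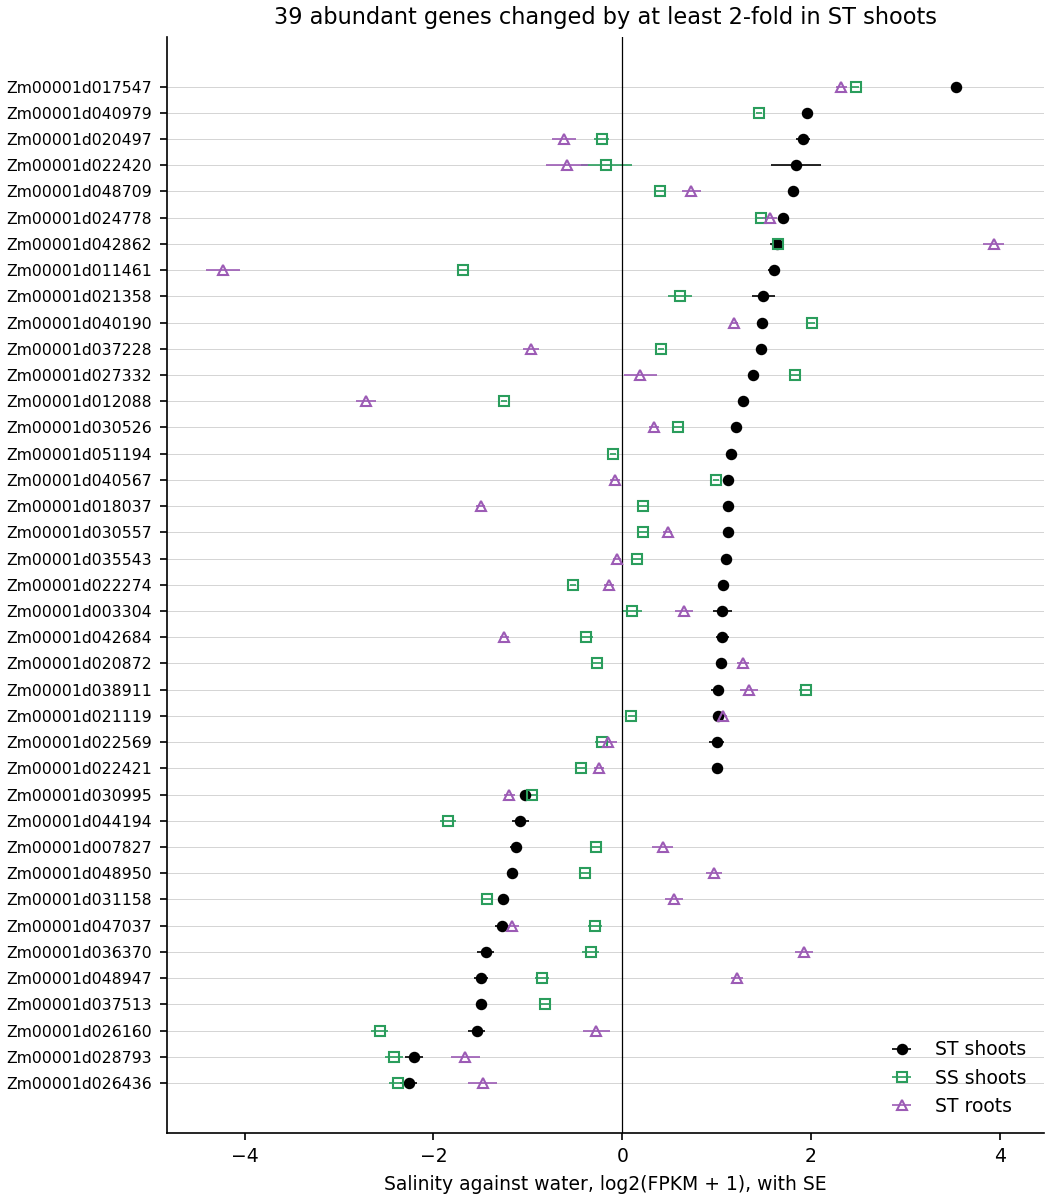
Log2(FPKM + 1) difference, salinity minus water, of the 39 abundant Zm00001d genes changed by at least 2-fold in ST shoots (filled circles, the values that chose them), with the same genes in SS shoots (squares) and ST roots (triangles, absent where not tested); bars are SE. All 12 falls lie left of 0 in SS shoots, and 6 of the 27 rises (24 of them tested in roots) were called lower in both SS shoots and ST roots, with Zm00001d011461 farthest to the left.

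Whether the response itself differed was tested as an interaction. Between ST and SS shoots 12739 of 24810 features differed (51.3%), and between ST shoots and ST roots 12630 of 29127 (43.4%). For genes picked by the size of their change in ST shoots this test is not independent of the choice, so their values are descriptions. The ST minus SS difference in log2 fold change was 4.11 for Zm00001d011123 (SE 0.11), -5.00 for Zm00001d039524 (SE 0.15) and 0.12 for Zm00001d026436 (SE 0.13, limma adjusted p = 0.462). The last gene thus shows a strong fall in both cultivars with a difference whose error includes 0.

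Some of the strongly changed genes were hardly read in ST roots. Of the 541 falls of at least 2-fold, 128 (23.7%) were under 1 FPKM in ST roots in both treatments, against 56 of the 347 rises (16.1%) and 3092 of all features tested (12.5%). Among the 10 most abundant genes of ST shoots, 7 stood more than 10 times higher in ST shoots than in ST roots. Zm00001d011285 was at 5.45 ± 1.51 to 6.72 ± 1.51 FPKM from water to salinity in ST roots, and only Zm00001d031168 of the 10 had a higher level in roots, 9976 ± 969.7 to 8269 ± 414 FPKM.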

How the data were processed

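RNA from young shoots and roots of maize seedlings was sequenced as paired ends on an Illumina instrument, per the labels. The authors deposited 1 table per library with an FPKM value for each of 50202 features. The submitters' processing notes name TopHat2, Cufflinks and Cuffdiff, with no version, and the build B73 RefGen_v3. Identifiers with the prefix Zm00001d belong to another gene set than that build, so no coordinates are given. Whether counting used strand, and how reads that match several copies were assigned, is not stated in the labels. Whole reads were recovered for all 40811 features above 0, so the values show no reads split into fractions.

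From the deposited FPKM values, whole reads were recovered for 40811 of 40811 features above 0 (tolerance 0.002 reads), with totals of 19747198 to 28825226 over the 24 libraries. Lengths in bases were inferred in the same step and not taken from an annotation. Each is the smallest whole length that gave whole reads in every library with a value above 0. Features with at least 1 FPKM in at least 3 libraries were entered, as log2(FPKM + 1), into limma (version 3.58.1, R version 4.3.3), with variance following the mean, in 1 fit of the 12 shoot libraries, with Benjamini-Hochberg adjustment at 0.05, two-sided. Values for ST roots came from the 12 root libraries, and the shoot and root responses were compared in a fit of all 24. Tables and figures were made with Python 3.11.15, pandas 2.3.3 and matplotlib 3.10.9. The fits and the recovery of reads were also run on simulated data, with an outcome that is not reported here. The simulated fits had far fewer changed features than were called in ST shoots, so they cannot vouch for these calls.

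The text names Zm00001d genes that were called and whose treatments did not overlap: the 8 with the strongest change in each direction at a mean of at least 5 FPKM, the 6 most abundant and the 4 with the largest FPKM change in each direction, up to 3 each that were read in 1 treatment only, and up to 4 called miRNA genes. From the 39 genes of at least 100 FPKM that changed by at least 2-fold, 12 rises and 6 falls were named after their values were seen, as were the 10 genes with the highest level, 1 miRNA gene that fell, rises called lower in the other 3 groups and 1 feature that was not called. The comparison, lists and rules were chosen with earlier results of these data known. Alternatives were another pseudocount (0.1), other filters (none, or 5 FPKM), 2 other scalings, other sets of libraries in the fit, a replicate block, limma's voom on recovered reads, and leaving out each ST shoot library.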

Additional observations from a re-analysis of the deposited data

Results flagged for a closer look

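These results were set apart because the response to salinity differed between groups by the interaction term of the limma fit, or had opposite directions in 2 groups. In all, 12739 features responded differently in ST and SS shoots and 12630 in ST shoots and ST roots. Single differences are given as ST shoots minus the other group, in log2 fold change, and for genes chosen by their change in ST shoots they are descriptions. Against SS shoots the difference was 4.11 for Zm00001d011123, -5.00 for Zm00001d039524, -3.82 for Zm00001d014491, 2.54 for Zm00001d012088 and 3.29 for Zm00001d011461. Against ST roots it was -5.06 for Zm00001d028651, 3.99 for Zm00001d012088, 5.83 for Zm00001d011461, -2.71 for Zm00001d048947, -3.37 for Zm00001d036370, 2.31 for Zm00001d042684 and 2.23 for zma-MIR156d. The last gene was read 27 to 39 times per water library and 58 to 74 times per salinity library in ST shoots.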

How the results depend on the processing

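None of the named genes that were called changed direction under the alternatives run for them, of which there were 15 for 58 of the 65 named genes and at least 11 for the others. Zm00001d009589 and Zm00001d039040, which were not called and stood near 0, changed sign in some. The counts of features called higher and lower stayed within 1.5 times their main values, at 4015 to 5520 and 4338 to 6125. The counts of features changed by at least 2-fold did not: with a pseudocount of 0.1 they were 639 rises and 1133 falls, and with voom 714 and 1232, both of which shrink low values less. Leaving out each ST shoot library in turn gave 4076 to 4233 rises, 4819 to 5289 falls, 327 to 350 and 492 to 566 of at least 2-fold, and 11773 to 12184 and 11702 to 12181 features that differed from SS shoots and from ST roots. Of the features tested under every alternative, 2892 of 3867 rises (74.8%) and 3228 of 4183 falls (77.2%) were called each time, and none was called in the opposite direction. Of those that rose by at least 2-fold, 305 of 305 were called each time, of the falls 359 of 362, and of the abundant genes changed by at least 2-fold 39 of 39. Over 65 named genes, 896 of 955 values kept their side of the threshold, 51 lost the call and 8 gained it, in 16 genes, mostly small changes of abundant ones; Zm00001d016074 lost it in the fit of all 24 libraries (adjusted p = 0.0635).

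Replicate numbers did not pair the libraries: same-numbered water and salinity libraries correlated at 0.031, 0.0097 and 0.066 in their deviations. With a replicate block 4570 features rose and 5535 fell, 347 and 540 by at least 2-fold. Depth limits genes read fewer than about 10 times per library.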

Other observations

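The feature with the largest change that was not called was Zm00001d016660, at 144, 151 and 0.393 FPKM in the water libraries and 433, 162 and 89.6 FPKM in the salinity libraries. Its 3 water libraries held 1983, 2029 and 5 reads, so 1 water library stood apart from the other two, and the treatments overlapped (limma adjusted p = 0.155; 0.0421 with voom, 0.744 without water replicate 3). It was singled out after its values were seen. Its values also spread in SS shoots under water, at 67.3 ± 42.9 FPKM (SD, n = 3), and further in roots. In ST roots they ran from 1.44 to 350 FPKM under water and from 2.24 to 378 FPKM under salinity. In SS roots they ran from 1.13 to 1514 FPKM under water and from 20.9 to 517 FPKM under salinity. Among features of other kinds in ST shoots, 234 of 1794 features whose identifiers mark them as added gene models rose (13.0%) and 380 fell (21.2%), and of 196 features with the prefix ENSRNA 5 rose (2.55%) and 18 fell (9.18%), against 18.9% and 22.8% of all features tested.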
